A study of Drosophila melanogaster with 16 samples.

Results

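EC-tagged RNA of larval neurons was compared between the end of a 12 h pulse and 3 h of chase. The comparison rests on 4 of the 16 libraries of the series, 2 at the pulse and 2 after 3 h of chase, chosen by cell type and time point in the sample labels. All 4 were made from brains at the third larval instar, in animals with UAS-CD:UPRT driven by nSyb-Gal4, and the pulse group carries the same transgenes as the chase group. Larvae of the pulse group were fed 5-ethynylcytosine for 12 h, and larvae of the chase group were then moved to food with excess uridine for 3 h before RNA was extracted from crudely dissected central nervous systems. The study's methods describe feeding and RNA processing as done separately for each biological replicate of a triplicate, while the labels give replicates 1 and 2 and do not name their cultures. A p-value here weighs the difference between the groups against the spread between these samples, which the labels do not show to be separate cultures. The label of replicate 1 of the pulse is the only 1 of these 4 that does not add the words "read 1".

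In EC-tagging, the enzyme CD:UPRT is present only in cells where the driver is active. It turns the fed cytosine analog into a tagged uridine nucleotide, which is built into newly made RNA, and tagged RNA is captured on beads through the ethynyl group. When excess uridine replaces the analog, tagging stops and the tagged pool is lost at the rate at which each mRNA is degraded. Most mRNAs are degraded after their poly(A) tail has been shortened by the CCR4-NOT complex and their cap removed. The driver uses regulatory sequence of nSyb, which encodes neuronal synaptobrevin, a membrane protein of synaptic vesicles, and is active in differentiated neurons. Sequencing gives each RNA as a share of the captured pool. Fewer tagged cells and less tagged RNA per cell cannot be told apart in these bulk samples, and the loss of the whole pool during a chase does not appear in such shares.

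The pulse libraries held far fewer genes than the chase libraries. Of 14207 nuclear genes listed, at least 10 counts were present for 904 (6.36%) and 2268 (16.0%) in replicates 1 and 2 of the pulse. After 3 h of chase the numbers were 6364 (44.8%) and 6230 (43.9%). The authors' values are estimated counts from kallisto, which shares reads among annotated transcripts, and they were summed here per gene. The nuclear total was 4973761 and 204916504 counts at the pulse and 13507692 and 168791963 after the chase, so the library with the most nuclear counts held fewer genes than either chase library. The mitochondrially encoded share of all counts was 88.8% and 86.3% in replicate 1 of the pulse and the chase, and 2.76% and 5.08% in replicate 2. Counting error on such shares was small, with a 95% interval (Wilson) of 88.766% to 88.785% in replicate 1 of the pulse, and intervals of this kind hold no other error. This share separated the replicate numbers and not the time points, so levels are given below as nuclear CPM, the counts of a gene over those of all nuclear genes in its library, as counts per 1000000. The 3 counts taken as the floor correspond to 0.603 and 0.0146 nuclear CPM at the pulse and 0.222 and 0.0178 after the chase.

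**Figure D1:**
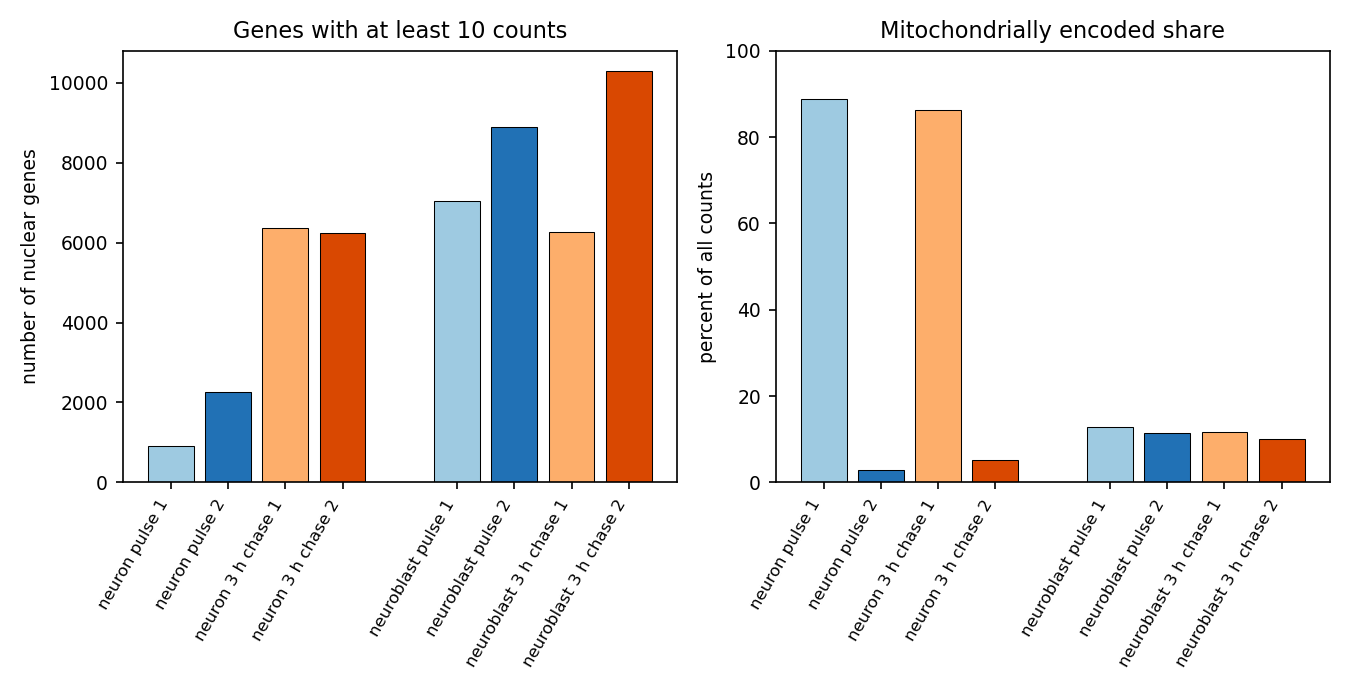
Bars give, for each library of neurons and of neuroblasts at the pulse and after 3 h of chase, the number of nuclear genes with at least 10 counts (left) and the mitochondrially encoded share of all counts in percent (right), with 1 bar a library and no error bars. The neuron pulse libraries are the lowest of the 8 on the left with 904 and 2268 genes, and replicate 1 of neurons stands apart on the right at 88.8% and 86.3%.

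The 4 libraries shared few genes. A total of 418 genes had at least 10 counts in all 4, 1320 in 3, 2752 in 2, 4630 in only 1 and 5087 in none. The pulse replicates shared 467 genes, which are 51.7% of those in replicate 1 and 20.6% of those in replicate 2. The chase replicates shared 3652, or 57.4% and 58.6% of theirs. Across genes with a count in either library, the Spearman correlation was 0.0398 between the pulse replicates and 0.0424 between the chase replicates. Between pulse and chase it was 0.549 in replicate 2 but 0.135 in replicate 1. Between unlike replicate numbers of pulse and chase it was 0.0911 and 0.0093. These correlations are across genes, which are not independent replicates, and describe the libraries only. Leading genes differed as well. The largest nuclear count belonged to fmt in replicate 1 of the pulse, to Muc14A in replicate 1 of the chase and to Muc96D in replicate 2 at both time points.

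The label of the tissue was checked with neuron markers. At least 10 counts were present for 7 and 9 of 10 markers at the pulse and for 9 and 10 after the chase. The gene of the RNA-binding protein ELAV, which marks all neurons, had 6.23 and 1509 nuclear CPM at the pulse and 392 and 786 after the chase. The gene that gives the driver its name, nSyb, had 0.804 and 3.66 nuclear CPM at the pulse and 344 and 684 after the chase. In nuclear CPM both chase libraries lay above both pulse libraries for nSyb, while the groups overlapped for elav. Markers of neurons with different transmitters varied from library to library. VGlut, the vesicular glutamate transporter, had 4210.5 and 1739.7 nuclear CPM at the pulse and 0 and 452 after the chase. In nuclear CPM it was the only 1 of the 10 markers that was higher in both pulse libraries. ChAT, which makes acetylcholine, had 4 counts and 1 count at the pulse and 998 and 1095 counts after the chase (73.9 and 6.49 nuclear CPM). Bruchpilot (brp), a protein of the active zone, had 2696 and 10.4 nuclear CPM at the pulse and 59.0 and 569.6 after the chase, so its groups overlapped. These placements depended on the scaling. With at least 10 counts in both libraries of the higher group, 5 of the 10 markers were higher after the chase and 1 at the pulse. With DESeq2 size factors in place of nuclear totals, the numbers were 0 and 3.

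**Figure D2:**
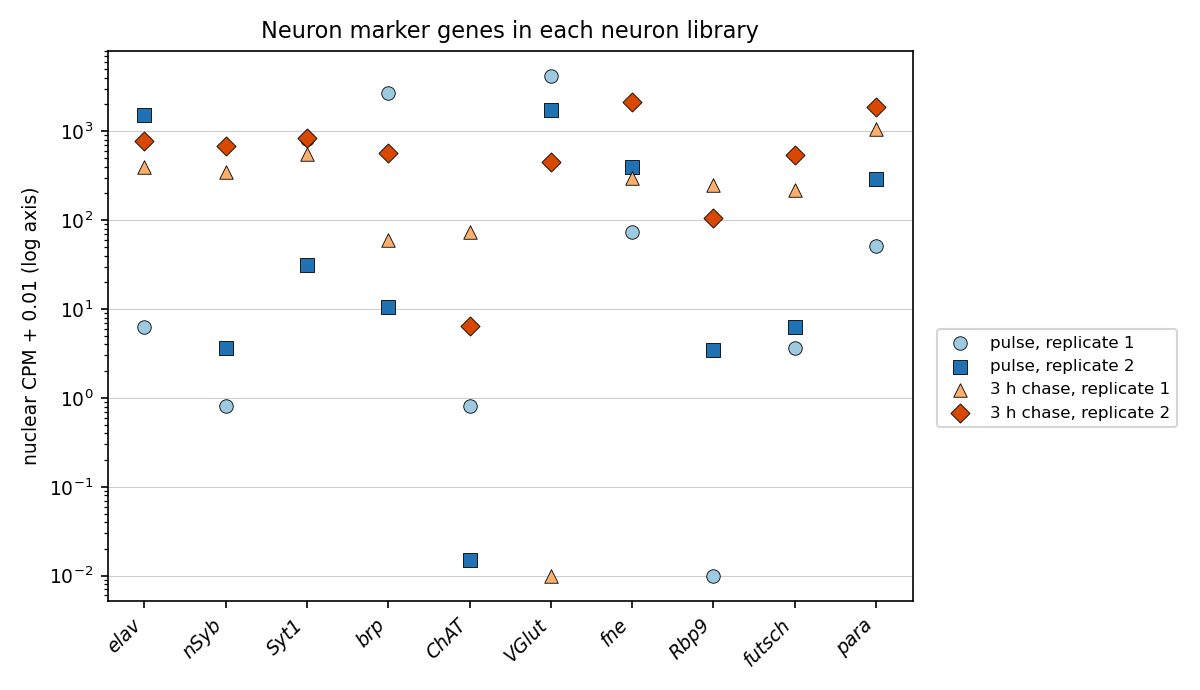
Points give the level of the 10 neuron marker genes in each of the 4 neuron libraries as nuclear CPM with 0.01 added so that a count of 0 can be drawn, on a log axis, with 1 point a library. The 2 chase libraries lie above both pulse points for nSyb, ChAT, Rbp9, futsch and para, and VGlut runs the other way with 0 counts in replicate 1 of the chase.

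Transcripts of genes that mark other cell types were also in the captured RNA, and their levels moved between libraries. Whether these transcripts were tagged was not tested. Among 14 neuroblast markers, 0 and 3 reached 10 counts at the pulse and 12 and 4 after the chase, with a summed level of 2.01 and 54.6 nuclear CPM against 2274 and 200.5. The neuroblast factor wor had 1385 counts in replicate 1 of the chase and at most 1 count in each of the other libraries, and CycB, which drives mitosis, had 5015 counts there and at most 1 elsewhere. The most abundant of these markers, grh, had 0.402 and 48.5 nuclear CPM at the pulse and 727 and 57.2 after the chase. Among 14 glial markers, 0, 4, 9 and 10 were detected in the 2 pulse and the 2 chase libraries, with sums of 0.201, 2879, 838 and 1086 nuclear CPM. The defining glial gene repo had 0 and 5 counts at the pulse and 1448 and 40544 after the chase. Gs2, a glutamine synthetase gene, instead followed the replicate number, with 0 and 2598 nuclear CPM at the pulse and 0.222 and 682 after the chase. Of 14 muscle genes, 4, 12, 12 and 13 were detected, and their sums were 1791, 7690, 5445 and 25357 nuclear CPM. The muscle titin gene sls had 1645, 0.60, 1860.3 and 3319 nuclear CPM, and the actin gene Act57B had 7.64, 3726, 170.05 and 8413. Of 9 fat body and serum protein genes, 4, 4, 8 and 5 were detected, with sums of 9146, 13751, 768 and 14672 nuclear CPM. The lipoprotein gene apolpp dominated, with 6464 and 12543 nuclear CPM at the pulse and 280 and 12082 after the chase, while the serum protein gene Lsp2 had 2673 and 0 against 17.1 and 0. The salivary glue list (10 genes) summed to 71.6, 10.7, 709 and 861 nuclear CPM, the cuticle list (10 genes) to 0, 724, 11.3 and 566, and the gut list (12 genes) to 0, 87.7, 1.85 and 977. In these lists most of the leading genes were high in a single replicate number. Sgs1 had 691 nuclear CPM in replicate 1 of the chase and at most 0.201 elsewhere. The genes ng1, Lcp3, betaTry and epsilonTry were highest in replicate 2, with at most 1.63 in replicate 1. Lcp4 was higher in both chase libraries, with 0 and 0.215 nuclear CPM at the pulse and 7.40 and 99.0 after the chase. The part of these cells in the results below was not tested.

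No gene passed the test of 3 h chase against pulse. By edgeR's quasi-likelihood test on TMM-scaled counts, 0 of 4949 genes past the filter had an adjusted p-value under 0.05 (0%), and the smallest adjusted p was 0.264. At an unadjusted p under 0.05 there were 14 genes lower and 560 genes higher after the chase. DESeq2 on the same genes called 653 lower and 972 higher. The fitted spread was wide, with a common biological coefficient of variation of 2.08, and a permutation over 2 against 2 libraries cannot give an exact two-sided p below 0.333. Of the 4949 genes, the fitted change was positive for 3462 and negative for 1487, and this split depended on the scaling: 2814 and 2135 with DESeq2 size factors, and 4080 and 869 with total nuclear counts. The median fitted log2 change of all genes was 5.44 with TMM, 1.70 with DESeq2 size factors and 8.21 with total nuclear counts. Fitted changes are therefore relative to a centre that the scaling moves, and the levels in each library are given in their place for the genes named.

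Genes whose levels did not overlap between the groups lay mostly on the side of the chase. Both chase libraries lay above both pulse libraries for 4028 of 14207 genes (28.4%), and both pulse libraries lay above both chase libraries for 59 (0.415%). With at least 10 counts in both libraries of the higher group as well, the numbers were 2672 (18.8%) and 40 (0.282%). With DESeq2 size factors in place of nuclear totals, the last pair became 1789 and 195. Gene groups below are read against these shares of all genes. Without replicate 1 of the pulse, both chase libraries lay above the remaining pulse library for 4524 genes and below it for 1183.

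Within the same replicate number, the 418 genes seen in all 4 libraries did not move together. Their median log2 ratio of chase to pulse, on the log2(nuclear CPM + 1) scale, was 1.00 in replicate 1 and 2.01 in replicate 2. Of these genes 171 were higher after the chase in both replicates, 63 were lower in both, 72 were higher in replicate 1 alone and 112 in replicate 2 alone. Across the 418 genes the ratios of the 2 replicates had a Pearson r of -0.00137 and a Spearman correlation of 0.0113. The ratio of a gene in replicate 1 thus did not track its ratio in replicate 2, even for genes with counts throughout.

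**Figure D3:**
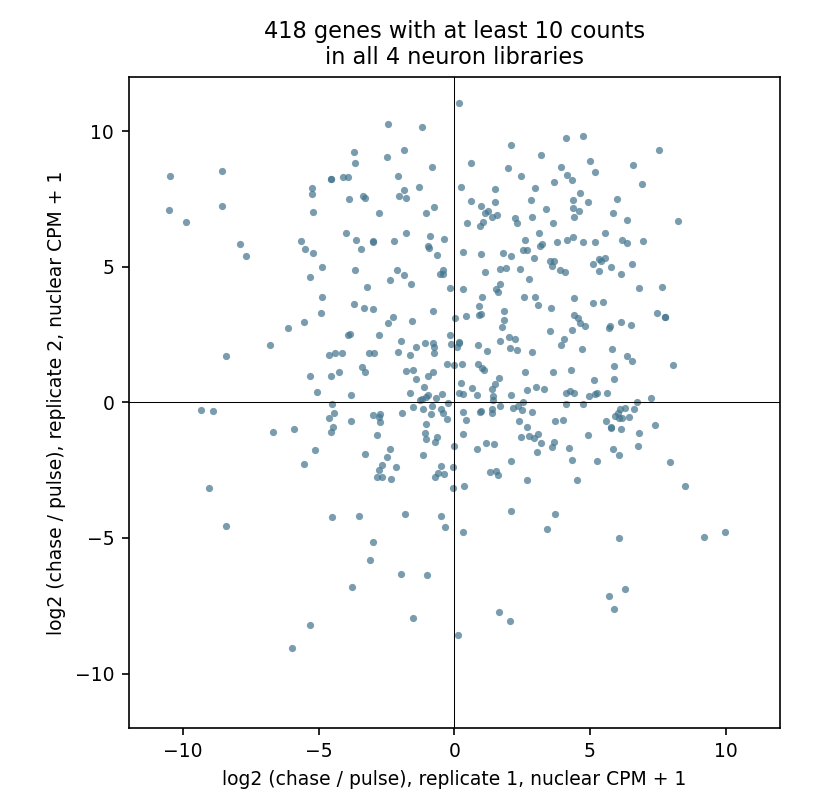
Each point is 1 of the 418 genes with at least 10 counts in all 4 neuron libraries. The axes give its log2 ratio of 3 h chase to pulse (nuclear CPM + 1) in replicate 1 and in replicate 2, and the cloud shows no slope (Pearson r -0.00137), with 171 genes above 0 on both axes and 63 below 0 on both.

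The 10 genes with the widest gap in favour of the chase were almost absent from the pulse libraries and abundant in both chase libraries. The widest belonged to nrm, which encodes neuromusculin, a cell adhesion protein of the immunoglobulin superfamily (FBgn0262509, chromosome 3L, 22998372 to 23040300, BDGP6.54). It had 2 and 15 counts at the pulse and 10515 and 115492 after the chase, or 0.402, 0.0732, 778 and 684 nuclear CPM. At the lower of the 2 chase levels the pulse libraries would have held 3403 and 140209 counts of nrm, a figure that covers depth alone and not the number of distinct molecules in a library. The chase libraries were close to each other and the groups did not overlap, but the fitted log2 change of 9.68 ± 6.51 (SE) had an adjusted p of 0.284 in edgeR. CG44085 (FBgn0264894, chromosome 2L, 13261008 to 13284043) had the highest chase levels of the 10, at 1133 and 1397 nuclear CPM, with 0 and 54 counts at the pulse.

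Several of the others encode regulators of signalling and transcription. The Pax-family transcription factor shaven (sv), known from sense organ development, had 0 and 3 counts at the pulse and 7473 and 53313 after the chase (553 and 316 nuclear CPM). CoRest, a corepressor that brings chromatin-modifying enzymes to neural genes, had 0 and 2 counts at the pulse and 6366 and 55480 after the chase (471 and 329 nuclear CPM). Rok, a protein kinase gene, had 0 and 9 counts against 8148 and 54414 (603 and 322 nuclear CPM). Each of these transcripts was present in both chase libraries at a similar level and next to missing in both pulse libraries. CkIIalpha, the catalytic subunit of casein kinase II, had 0 and 6 counts at the pulse and 658 and 297 nuclear CPM after the chase. The receptor gene mtt, related to metabotropic glutamate receptors, had 0 and 8 counts at the pulse and 487 and 316 nuclear CPM after the chase. Agpat1, an acyltransferase of phospholipid synthesis, had 1 count and 6 counts against 779.7 and 347 nuclear CPM. CG11360 and CG15546 had 0 and 2 counts each at the pulse, and after the chase 712 and 280 nuclear CPM for CG11360 and 483 and 404 for CG15546. None of the 10 passed edgeR's test, with adjusted p-values from 0.264 to 0.331, whereas DESeq2 called all but CG44085 (its DESeq2 adjusted p was 0.128). The 10 were chosen for the widest gaps on TMM-scaled levels, so non-overlap on that scale was fixed by the choice. Their groups also did not overlap in nuclear CPM, with DESeq2 size factors or with mitochondrial genes kept. Gaps this wide leave little room for another outcome. Agpat1, sv, Rok, CG44085 and mtt overlap another gene in the annotation, so part of their reads could belong to that gene.

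**Figure D4:**
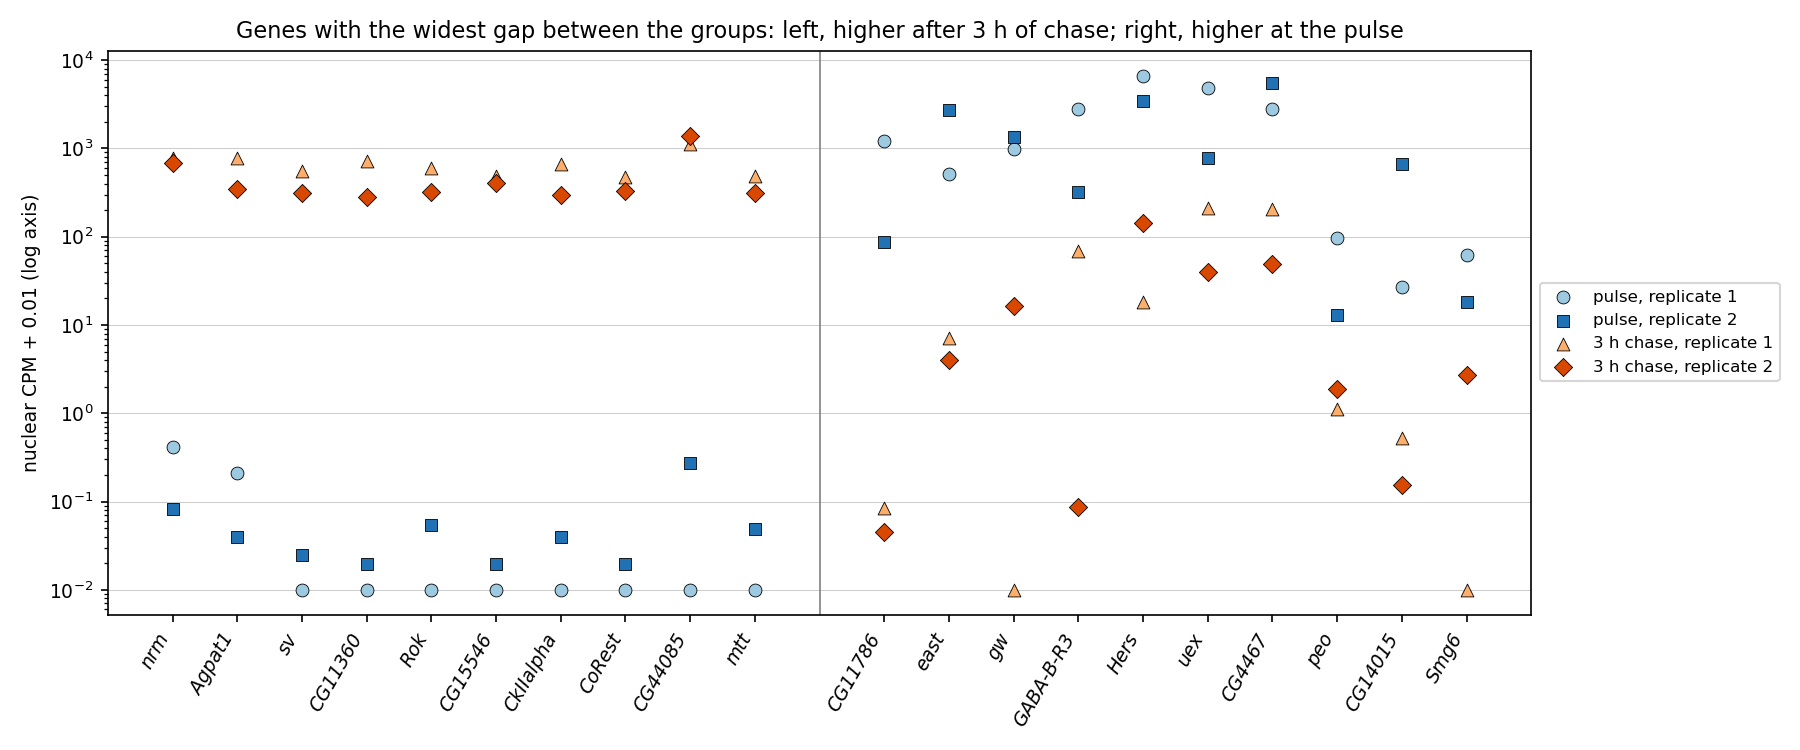
Points give the level in each neuron library, as nuclear CPM with 0.01 added on a log axis, for the 10 genes with the widest gap in favour of the 3 h chase (left of the line) and the 10 with the widest gap in favour of the pulse (right). On the left the pulse points lie at 0.402 nuclear CPM or less, and on the right GABA-B-R3, uex and peo have pulse replicates that lie farther from each other than the lower pulse point lies from the upper chase point.

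The 10 genes with the widest gap in favour of the pulse varied more between replicates. Only 95 genes entered this ranking, against 2344 for the chase. CG11786 (FBgn0039264, chromosome 3R, 25046323 to 25047409) had 6118 and 17747 counts at the pulse and 1 count and 6 counts after the chase, or 1230.1, 86.6, 0.0740 and 0.0355 nuclear CPM. It was the only 1 of the 20 named genes whose chase counts were this close to 0 in both libraries while both pulse libraries were well covered. East, a large nuclear protein, had 511 and 2692 nuclear CPM at the pulse and 7.11 and 4.03 after the chase. CG14015 had 26.9 and 666 nuclear CPM against 0.518 and 0.142, which are 7 and 24 counts.

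Gawky (gw), the GW182 protein through which microRNAs recruit deadenylases, had 989 and 1342.5 nuclear CPM at the pulse and 0 and 16.3 after the chase (0 and 2753 counts). Smg6, the endonuclease of nonsense-mediated decay, had 62.3 and 18.1 nuclear CPM at the pulse and 0 and 2.68 after the chase. Both had 0 counts in replicate 1 of the chase, while replicate 2 still held 453 counts of Smg6. GABA-B-R3, a metabotropic GABA receptor, had 2763 and 320 nuclear CPM at the pulse and 68.1 and 0.0770 after the chase. Hers, a repressor of histone genes, had 6547 and 3431 against 18.1 and 144, and uex, a magnesium transporter, had 4899 and 775 against 214 and 40.1. For GABA-B-R3 replicate 2 of the chase was the lower, and for Hers replicate 1. CG4467 had 2825 and 5563 nuclear CPM at the pulse and 208 and 48.9 after the chase, and peo, a ubiquitin-conjugating enzyme variant needed at telomeres, had 96.5 and 12.8 against 1.11 and 1.88. These 10 genes were likewise chosen for groups that did not overlap on TMM-scaled levels. Their groups also did not overlap in nuclear CPM, with DESeq2 size factors or with mitochondrial genes kept, and edgeR's adjusted p-values ran from 0.264 to 0.579. DESeq2 called all 10. Of the 10, east, Hers and peo overlap genes on the opposite strand.

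Where members of neuronal gene groups did not overlap between the time points, nearly all were higher after the chase in nuclear CPM, as were genes in general, but with DESeq2 size factors this did not hold for synaptic genes, nicotinic subunits and neuron markers. In the descriptions that follow, a member is counted as higher after the chase when both chase libraries had at least 10 counts and lay above both pulse libraries in nuclear CPM. Of 30 genes of synaptic vesicle release, 22 were detected in replicate 2 of the pulse but 8 in replicate 1, and 23 and 26 after the chase. Higher after the chase were 8 of the 30 (26.7%, against 18.8% of all genes), and 1, VGlut, was higher at the pulse. Complexin (cpx), which clamps vesicle fusion, had 9.25 and 37.2 nuclear CPM at the pulse and 966 and 1309 after the chase. VAChT, which loads acetylcholine into vesicles, had 1.01 and 0.0586 against 677 and 582. In nuclear CPM the chase replicates were alike and far above the pulse in both genes. With DESeq2 size factors, replicate 2 of the pulse lay above both chase libraries for cpx. The most abundant member, unc-13, which primes vesicles, had 0.402 and 8727 nuclear CPM at the pulse and 2941 and 728 after the chase, so its groups overlapped and the pulse replicates differed the most. With DESeq2 size factors only 1 of the 30 was higher after the chase and 3 were higher at the pulse. Lists of other cell types also had members higher after the chase, so this was not particular to neuronal genes. By the same count these were 9 of 14 muscle genes (64.3%), 7 of 14 glial markers (50.0%) and 3 of 14 neuroblast markers (21.4%). For fat body and gut genes it was 0 of 9 and 0 of 12. With DESeq2 size factors the muscle, glial and neuroblast numbers were 2, 7 and 0.

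Axon guidance and neural adhesion genes were detected more widely after the chase. Of 48 genes, 13 and 28 were detected at the pulse and 45 and 43 after the chase, and 25 (52.1%) were higher after the chase. The list included receptors of the midline signal Slit. Robo1 had 0 and 0.0634 nuclear CPM at the pulse and 162.5 and 375 after the chase, and robo2 had 0 and 0.0146 against 175 and 222. The third receptor gene, robo3, had 0 counts in both pulse libraries and 1550 and 8139 after the chase. Among Netrin signalling genes, the receptor gene fra had 0.201 and 0.00976 nuclear CPM at the pulse and 403 and 92.1 after the chase, and the ligand gene NetA had 0 and 0.0195 against 245 and 140. The second Netrin gene, NetB, differed from these, with 55.1 and 173 nuclear CPM at the pulse and 129 and 655 after the chase, so its groups overlapped. The adhesion genes Lar and CadN lay at most at 39.7 and 96.9 nuclear CPM at the pulse and between 479 and 821 after the chase. Abl, a kinase downstream of guidance receptors, had 76.6 and 80.0 at the pulse and 4104 and 565 after the chase. Other members did the reverse in a single replicate. Sema1a had 12620 nuclear CPM in replicate 1 of the pulse against 97.1 in replicate 2, and 709 and 347 after the chase, and PlexB, a semaphorin receptor gene, had 6787 and 0.0586 against 1219 and 551. Fas2 was high in replicate 2 of the pulse only (0.603 and 4126 nuclear CPM, against 622 and 142). With DESeq2 size factors 14 of the 48 were higher after the chase and 4 at the pulse.

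Ion channel and nicotinic receptor genes were also detected more widely after the chase. Of 20 voltage-gated channel genes, 8 and 11 were detected at the pulse and 18 and 19 after the chase, and 11 (55.0%) were higher after the chase against 1, Hk, at the pulse. The sodium channel gene para had 50.7 and 293 nuclear CPM at the pulse and 1058 and 1853 after the chase. Ca-alpha1T, a T-type calcium channel gene, had 0 and 0.0342 against 354 and 327. The potassium channel gene Sh had 1.21 and 2728 nuclear CPM at the pulse and 2228 and 1095 after the chase, and Hk, its beta subunit, had 2705 and 1259.5 against 335 and 34.8. A channel and its subunit thus lay in different places, Sh with overlapping groups and Hk above in both pulse libraries. Of 10 nicotinic receptor subunits, 6 were higher after the chase and 0 at the pulse. The subunit nAChRalpha6 had 31.2 and 374 nuclear CPM at the pulse and 1149 and 664 after the chase, and nAChRalpha5 had 3.82 and 7.32 against 603 and 518. The subunit nAChRalpha1 had 236 and 703 against 996 and 43.3, so its groups overlapped. With DESeq2 size factors the counts were 7 and 2 for channels, and 2 and 2 for nicotinic subunits, so the excess on the side of the chase depended on the scaling for the receptors.

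Sodium pump and neuropeptide genes were also examined. Of 4 sodium-potassium pump genes, 0 were higher in either direction. Atpalpha, the catalytic subunit, had 32.8 and 5948 nuclear CPM at the pulse and 581 and 5695 after the chase, so it followed the replicate number. Its beta subunit gene nrv3 had 39.2 and 1845 against 289 and 1451 and also followed the replicate number. Of 42 neuropeptide and processing genes, 3, 11, 20 and 26 were detected in the 4 libraries and 11 (26.2%) were higher after the chase. With DESeq2 size factors 6 (14.3%, against 12.6% of all genes) were higher after the chase and 2 at the pulse. Dh31, a diuretic hormone gene, had 0 and 0.0342 nuclear CPM at the pulse and 170 and 520 after the chase. The most abundant, Proc and Nplp2, had groups that overlapped: Proc had 0.201, 642, 148 and 2970.4 nuclear CPM and Nplp2 had 326, 602, 301 and 2645.

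Transcription factors of neurons and of the steroid response were detected in both chase libraries for most members. Of 33 neuronal transcription factors, 7, 14, 28 and 25 were detected, and 11 (33.3%) were higher after the chase. The temporal factor gene chinmo had 8.65 and 60.5 nuclear CPM at the pulse and 890 and 444 after the chase, and cut (ct) had 0.201 and 32.8 against 626 and 414. The most abundant members, pros and mamo, overlapped between groups: pros had 188, 3479, 2497 and 201 nuclear CPM and mamo had 1474, 0.166, 2999.8 and 16.1. Of 14 genes of the ecdysone response, 9 (64.3%) were higher after the chase. Eip75B, an early gene of this steroid hormone, had 1.01 and 84.2 nuclear CPM at the pulse and 767 and 1034 after the chase. The receptor gene EcR had 0.201 and 0.0244 against 1354 and 69.5. Hr4 differed, with 5360.1 nuclear CPM in replicate 1 of the pulse, 21.3 in replicate 2, and 782 and 122 after the chase. Of 9 immediate early genes, 3 (33.3%) were higher after the chase. Among them kay, the fly Fos, had 0.201 and 0.112 nuclear CPM at the pulse and 315 and 330 after the chase. Its partner Jra, the fly Jun, had 11212 and 0 against 76.4 and 1.65. With DESeq2 size factors 5 of 33 transcription factors and 5 of 14 ecdysone genes were higher after the chase, against 12.6% of all genes.

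**Figure D5:**
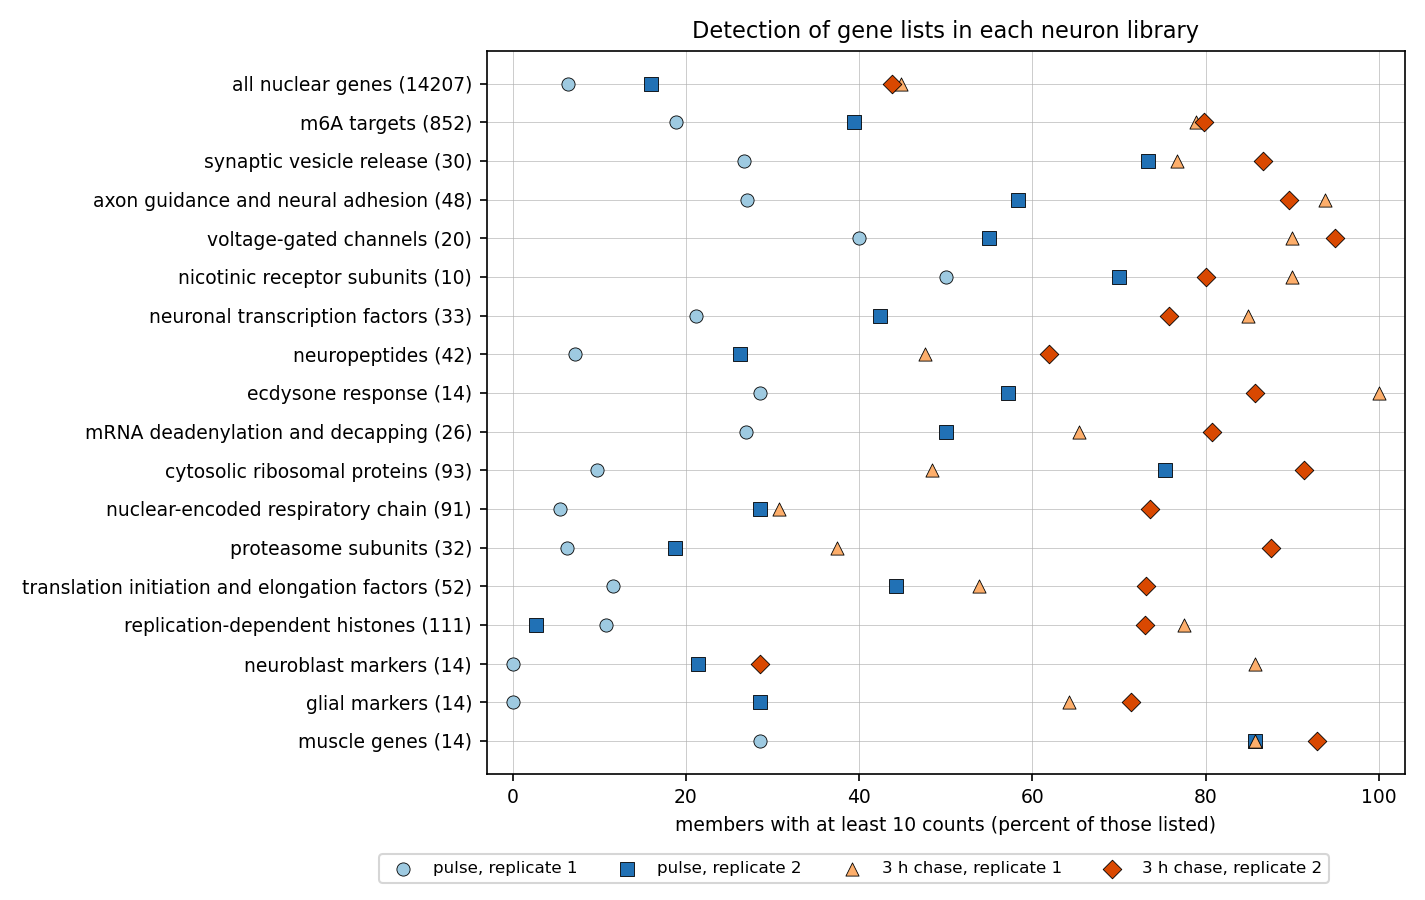
Points give the share of each gene list with at least 10 counts in each neuron library, in percent of the members listed (their number is in brackets), with 1 point a library. All lists shown except cytosolic ribosomal proteins and muscle genes have both chase points to the right of both pulse points, as all nuclear genes have (6.36% and 16.0% against 44.8% and 43.9%).

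RNA-binding and decay factors are the machinery that acts on the tagged pool. Of 26 genes of deadenylation, decapping and surveillance, 7 and 13 were detected at the pulse and 17 and 21 after the chase, and 11 (42.3%) were higher after the chase. Not1, the scaffold of CCR4-NOT, had 169 and 140 nuclear CPM at the pulse and 577 and 966 after the chase. The translational repressor gene pum had 19.9 and 0.249 against 670 and 592, and Tis11, which binds AU-rich elements, had 87.5 and 4.68 against 571 and 279. The decapping cofactor gene Edc3 had 0 and 0.0732 nuclear CPM at the pulse and 61.1 and 715 after the chase. The most abundant members, the poly(A)-binding protein gene pAbp and the repressor gene brat, overlapped: pAbp had 0, 4232, 45.3 and 2435 nuclear CPM and brat had 2.01, 3313, 1798 and 105. Among 10 genes of the ELAV family and other neuronal RNA-binding proteins, 4 were higher after the chase. Fmr1, the fragile X protein gene, had 1.01 and 0.0293 nuclear CPM at the pulse and 552 and 318 after the chase. Imp and Syp, whose proteins oppose each other in the developing brain, had 5.23, 1472, 1677 and 3813 (Imp) and 6653, 0.0390, 1580.4 and 119.6 (Syp). The splicing factor gene ps had 15.9, 5375, 1140.3 and 3629.6. With DESeq2 size factors 8 of the 26 decay genes (30.8%) were higher after the chase, against 12.6% of all genes. On that scale 3 of the 26 were higher at the pulse, against 195 of all 14207 genes, and Not1 was higher in both pulse libraries. Of the 10 RNA-binding protein genes, 2 were then higher after the chase and 0 at the pulse.

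The machinery of m6A was sparsely covered. Of 9 writer and reader genes, 2 and 4 were detected at the pulse and 4 and 7 after the chase. Ythdc1, the nuclear reader, was seen in all 4 libraries at 54.1 and 11.3 nuclear CPM at the pulse and 349 and 15.7 after the chase, so replicate 1 of the pulse lay above replicate 2 of the chase. The methyltransferase gene Mettl3 had 43517 counts (258 nuclear CPM) in replicate 2 of the chase and at most 2 counts in each of the other libraries. Ythdf, the cytoplasmic reader, had 0 and 9.55 nuclear CPM at the pulse and 141 and 9.17 after the chase. In nuclear CPM the writer complex member Flacc was higher in both pulse libraries, with 17.9 and 50.3 against 0 and 9.62. The gene fl(2)d was higher in both chase libraries, with 0.201 and 1.40 against 114 and 81.9. By the count used above, 1 of the 9 (11.1%) was higher after the chase, against 18.8% of all genes, and 1 at the pulse. With DESeq2 size factors the numbers were 0 and 2, and with mitochondrial genes kept they were 2 and 0.

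Of the m6A targets of the study, a larger share than of all genes was higher after the chase, a description with no test. This list came from immunoprecipitated RNA of other samples of the study, and 852 of its 867 genes are listed here. At least 10 counts were present for 161 and 336 targets at the pulse and for 672 and 680 after the chase. Higher after the chase were 380 (44.6%) and higher at the pulse 3, against 18.8% and 0.282% of all genes. Targets were also more often detected at all, with 94.4% seen in at least 1 of the 4 libraries against 64.2% of all genes. Among genes seen in at least 1 library, 47.3% of targets and 29.3% of all genes were higher after the chase. With DESeq2 size factors, 28.2% of targets and 12.6% of all genes were. Together the targets took 14.8% and 15.0% of nuclear counts at the pulse and 18.8% and 15.0% after the chase, so the share was higher after the chase in replicate 1, while replicate 2 held the same share at both time points. The sign of the median depended on how it was taken. Of the 656 targets tested by edgeR, 0 passed the threshold, and their median fitted log2 change lay 0.98 below that of all genes (a difference of -0.98). From the ratios of single replicates the same difference was 1.81 in replicate 1 and 0.42 in replicate 2.

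Cytosolic ribosomal protein genes were higher in replicate 2 than in replicate 1 at both time points, in their sum. Of 93 cytosolic ribosomal protein genes, 9 and 70 were detected at the pulse and 45 and 85 after the chase. The summed level was 593 and 24962 nuclear CPM at the pulse and 2931 and 36439 after the chase. RpL7 had 0.804 and 6734.5 nuclear CPM at the pulse and 1.18 and 1323 after the chase. RpS6 had 0 and 2936 against 1.18 and 992. Higher after the chase were 17 of the 93 (18.3%), which is close to the 18.8% of all genes. The elongation factor gene eEF1alpha1 had 25.1 and 4047 nuclear CPM at the pulse and 322 and 8833 after the chase, and 15 of 52 translation factor genes (28.8%) were higher after the chase. Its partner eEF2 had 3.02 and 5613.5 against 0.962 and 3219. Of 91 nuclear genes of the respiratory chain, 5, 26, 28 and 67 were detected and 20 (22.0%) were higher after the chase, with the 2 ATP synthase genes ATPsynbeta and blw at 236 and 628 and at 355.5 and 1264 nuclear CPM there and at no more than 24.7 at the pulse. Its most abundant member, ATPsynC, had 40.8, 3684, 176 and 831. ND-ACP had 0, 3664, 0.370 and 48.8. The 73 mitochondrial ribosomal protein genes were detected in 0, 7, 13 and 34 cases, and 4 (5.48%) were higher after the chase. The most abundant of them, mRpL9 and mRpL52, had 0, 155, 158 and 0.148 nuclear CPM and 0, 16.4, 268 and 32.8. This list summed to 0.201 and 199.8 nuclear CPM at the pulse and 684 and 805 after the chase, so its sums did not overlap. Of 32 proteasome genes, 2, 6, 12 and 28 were detected and 10 (31.3%) were higher after the chase, but Rpn3 had 7549.8 nuclear CPM in replicate 1 of the pulse and 0.00488, 165 and 1.07 in the others, and Prosalpha6 was seen in replicate 2 only (1206 and 341 nuclear CPM). Of 33 vacuolar proton pump genes 7 (21.2%) were higher after the chase, and Vha16-1, the most abundant, had 59.9, 5265, 274 and 4591 nuclear CPM. Vha55 had 0, 634, 145 and 1381. Each of these lists had 0 members higher at the pulse on this scale. On DESeq2 size factors the members higher after the chase numbered 6 of 93 cytosolic ribosomal protein, 6 of 52 translation factor, 9 of 91 respiratory, 1 of 73 mitochondrial ribosomal protein, 7 of 32 proteasome and 2 of 33 proton pump genes, and those higher at the pulse 3, 2, 1, 0, 1 and 0.

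Act5C and the 2 most abundant chaperone genes were low in replicate 1. Act5C had 0.603 and 2104 nuclear CPM at the pulse and 0.666 and 4849 after the chase. Hsc70-4, a constitutive chaperone, had 3.82 and 7311 against 13.2 and 1259.9, and Hsc70-3 had 3.82 and 4944 against 57.3 and 1592. Replicate 1 lay far below replicate 2 at both time points in each of these genes. Of 24 chaperone genes 3 (12.5%) were higher after the chase, against 18.8% of all genes. Of 20 tubulin, actin and microtubule genes 5 (25.0%) were. With DESeq2 size factors these numbers were 2 (8.33%) and 3 (15.0%), against 12.6% of all genes. Ank2, an ankyrin that organises axonal membranes, was higher after the chase in nuclear CPM. It had 1.21 and 2979 nuclear CPM at the pulse and 3202 and 5317 after the chase.

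Replication-dependent histone genes, like genes in general, were detected more widely after the chase. Of 111 listed, 12 and 3 (10.8% and 2.70%) had at least 10 counts at the pulse, against 6.36% and 16.0% of all genes. After the chase 86 and 81 (77.5% and 73.0%) had, against 44.8% and 43.9% of all genes. Higher after the chase were 59 (53.2%, against 18.8% of all genes). With DESeq2 size factors 36 were (32.4%, against 12.6% of all genes). Their summed level was 604 and 1.29 nuclear CPM at the pulse and 7172 and 526 after the chase, so the sums overlapped between replicate 1 of the pulse and replicate 2 of the chase. The copies of each histone gene are nearly identical in sequence and kallisto divides their reads, so counts of single copies are uncertain. The highest copies, His1:CG33804 and His1:CG33852, had 808 and 676 nuclear CPM in replicate 1 of the chase and 0.219 and 1.35 in replicate 2. Of 16 Notch and E(spl) genes, 1 (6.25%) was higher after the chase. E(spl)m8-HLH and neur were seen in replicate 1 of the chase only (1782 and 2937 counts). The receptor gene N had 2.41 and 0.0439 nuclear CPM at the pulse and 138 and 0.332 after the chase.

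Neuroblasts, in which insc-Gal4 drove the same enzyme, gave the comparison for whether these differences belong to neurons. The test of the neuron change minus the neuroblast change covered 10109 genes over 8 libraries, and 0 (0%) had an adjusted p-value under 0.05 in edgeR, with a smallest adjusted p of 0.338. At an unadjusted p under 0.05 there were 162 genes lower and 1273 higher in neurons. DESeq2 called 342 lower and 492 higher. In neuroblasts the pulse libraries held 7042 and 8897 genes with at least 10 counts and the chase libraries held 6274 and 10290, so the time points did not separate there as they did in neurons. The mitochondrially encoded share was 10.05% to 12.8% in these 4 libraries. The nrm transcript had 501 and 464 nuclear CPM at the neuroblast pulse and 279 and 346 after 3 h, and CG44085 had 1005 and 524 against 523 and 474. The neuron chase levels of nrm were of that order, and the neuron pulse levels were not. In neuroblasts gw had 380 and 335 nuclear CPM at the start of the chase and 489 and 389 at its end, and east had 271 and 124 against 287 and 166.

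Later neuron libraries showed how the named genes lay after the 3 h point. At 6 h of chase 3427 and 9391 genes had at least 10 counts, and at 12 h 5164 and 13903. The nrm level was 1528 and 396 nuclear CPM at 6 h and 158 and 305 at 12 h, so it stayed far above the pulse in all 4 later libraries. CG44085 had 548 and 466 at 6 h and 975 and 668 at 12 h. CG15546, in contrast, had 0 and 1.79 nuclear CPM at 6 h and 0 and 14.5 at 12 h, so among the neuron libraries its high level was seen at 3 h only. CG11786 had 0.177 and 0.887 at 6 h and 0.123 and 31.0 at 12 h, so it was low in 3 of these libraries. The 31.0 came from the library in which 13903 genes (97.9% of those listed) had at least 10 counts, so it may not be particular to this gene. The level of CG4467, which was low after 3 h, was 7687 and 159.8 nuclear CPM at 6 h and 3921 and 196 at 12 h, so replicate 1 lay at or above its pulse level of 2825.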

How the data were processed

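RNA captured after EC-tagging in larval neurons was sequenced in 2 pulse and 2 chase libraries of 3 h. The authors trimmed reads with Trimmomatic and deposited estimated counts per transcript from kallisto on the BDGP6 annotation; versions and strand use are not given in the sources used here, and the largest deposited values carry few digits. Estimated counts were rounded and summed per gene (Ensembl BDGP6.54, 99.57% of transcripts matched; 0.0116% to 0.183% of counts were in unmatched ones and were left out). The 14 mitochondrially encoded genes were left out of library sizes. Nuclear totals ran from 4973761 to 204916504 counts, and intervals and floors cover counting error only.

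edgeR 4.0.16 (R 4.3.3) fitted the 4 libraries with filterByExpr and TMM, the quasi-likelihood test and Benjamini-Hochberg adjustment at 0.05, and the interaction over 8 libraries of neurons and neuroblasts. The procedure was tested on simulated data. DESeq2 1.42.0, other scalings and filters, a replicate block, transcripts and left-out libraries were alternatives. Tables and figures used Python 3.11.15, pandas 2.3.3, numpy 2.4.6 and matplotlib 3.10.9.

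The comparison, gene lists and rules were chosen with earlier results of these data known. Named genes are the 10 per direction with the largest gap between groups that do not overlap (TMM-scaled nuclear CPM, log2, pseudocount 1, at least 10 counts in both libraries of the higher group), the 2 most abundant members of each list and the defining markers; further list members were picked after their values were seen. The stricter rule on non-overlap, its scalings, the left-out interaction fits and an alternative without rRNA pseudogenes were added after seeing the data. The m6A targets came from a supplementary table of the study, of which gene identifiers alone were used.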

Additional observations from a re-analysis of the deposited data

Results flagged for a closer look

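Of the 20 genes with the widest gaps, 10 lay in the same direction in both replicate numbers of neurons and in the opposite direction in both of neuroblasts. The 20 were chosen for groups that do not overlap in neurons, which fixes their shared direction there. Only the direction in neuroblasts was free. The fitted log2 change in neurons was 9.68 for nrm, 11.7 for sv, 12.4 for CG11360, 11.0 for CkIIalpha and 9.59 for CG44085, each of them higher after the chase. It was -15.1 for CG11786, -11.7 for east, -9.82 for gw, -13.9 for CG14015 and -6.68 for Smg6, each of them lower after the chase. In neuroblasts it was -0.588 for nrm, -0.624 for sv, -0.105 for CG11360, -0.937 for CkIIalpha and -0.596 for CG44085. There it was 11.2 for CG11786, 0.225 for east, 0.343 for gw, 8.85 for CG14015 and 0.215 for Smg6. Within neuroblasts edgeR called 0 of 9320 genes tested at an adjusted p under 0.05. The difference itself, neurons minus neuroblasts, was tested by edgeR's interaction term and passed for none of the 10, with adjusted p-values from 0.338 to 0.386. Since the direction in neurons was fixed, the 10 are set against genes that moved in 1 direction in both neuron replicates. Of the 4481 genes higher after the chase in both, 1060 (7.46% of all genes) were lower in both neuroblast replicates. Of the 151 genes lower in both neuron replicates, 25 (0.176% of all genes) were higher in both neuroblast replicates.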

How the results depend on the processing

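edgeR called 0 genes in the comparison and in the interaction under every alternative run with it, including each left-out neuron library (range 0 to 0), where the lone library of a group is assumed to vary like the other group. DESeq2 in place of edgeR called 653 genes lower and 972 higher in neurons, and 342 lower and 492 higher in the interaction; the cause was not tested. The replicate numbers are not tied to a shared litter or day, and the 2 pairs had a correlation of deviations of 0.257. With the replicate number as a block, 0 genes passed in either test, with 8 lower and 1575 higher at an unadjusted p under 0.05 in neurons and 88 and 1604 in the interaction.

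Genes with both chase libraries above both pulse libraries numbered 2500 with DESeq2 size factors and 2672 with at least 10 counts required, and 4524 to 6945 when 1 library was left out, with 6945 without replicate 1 and 6559 without replicate 2 of the chase. Genes the other way numbered 137 with TMM and 276 with DESeq2 size factors, and 192 to 1183 with 1 library left out: 1183 and 517 without replicates 1 and 2 of the pulse, 192 and 217 without those of the chase. A rule with 1 library fewer is easier to meet. The m6A target median relative to all genes, -0.98, was 0.42 without replicate 1 and 1.81 without replicate 2, which are ratios of single libraries with no test. Of the named genes' values under alternatives, 281 kept direction and side of the threshold and 19 passed it, all with DESeq2; of the list medians, 133 stayed within the spread between replicates and 107 moved. With at least 1 count, 1932, 6620, 7680 and 8458 genes were detected in the 2 pulse and 2 chase libraries, and with at least 100 counts 567, 1769, 4956 and 5339. Depth limits replicate 1 of the pulse most, with a floor of 0.603 nuclear CPM.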

Other observations

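The transcript that held most of a gene's counts often differed between replicates. Among genes with at least 100 counts in both libraries, the leading transcript was the same for 54.7% of 201 genes between the pulse replicates and for 45.8% of 2079 between the chase replicates. It was the same for 53.3% of 315 genes between pulse and chase in replicate 1 and for 58.2% of 1219 in replicate 2. For uex the leading transcript was FBtr0302227 in both libraries of replicate 1 and FBtr0334938 in both of replicate 2, and for CG4467 it was FBtr0084390 and FBtr0110801.

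Genes detected at the pulse were long. The median length of the longest transcript was 3493 and 3103.5 nucleotides for genes with at least 10 counts in the pulse libraries, 2459.5 and 2448 in the chase libraries, 5510 for the genes in all 4 and 1679 for all nuclear genes. It was 2666.5 for genes higher in both chase libraries and 2795 for genes higher in both pulse libraries.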
